A study of Mus musculus with 17 samples.

Results

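DNA methylation and Polycomb marks are written, copied and erased by a small set of enzymes, and 9 genes of this machinery were followed here: Dnmt1, Uhrf1, Hells, Dnmt3a, Dnmt3b, Tet1, Tet2, Tet3 and Ezh2. They were taken by symbol from a table of RNA-seq read counts for 23420 genes, and all 9 were present. The libraries came from mouse cells that carry the R172H knock-in allele of p53 on a C57BL/6 background. There were 4 libraries of second-generation tumour lines (TL2), grown out of tumours that had formed from injected first-generation lines, 6 libraries of first-generation tumour lines (TL1) and 3 of bone marrow mesenchymal stem cells (MSC). A further 4 libraries came from clones of first-generation lines, 2 labelled as p53 knockout (KO clones) and 2 control clones that keep mutant p53 (Mut clones). Passages ran from 2 to 20 and no group was treated. Culture differed as well, with leukaemia inhibitory factor and agar coating for the tumour-derived cells and MSC medium for the MSC, so tumour origin and culture cannot be told apart. A number from 1 to 3 in the titles is kept in the library names, with a letter where a number recurs (TL1 2a, TL1 2b). What the number stands for was not given in the sources used here.

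DNMT1 copies CpG methylation onto the new strand behind the replication fork. UHRF1 recognises the hemimethylated sites and brings DNMT1 to them, and HELLS, a chromatin remodeller, opens nucleosomal DNA to the methylation enzymes. DNMT3A and DNMT3B add methyl groups to unmethylated DNA, and the TET dioxygenases oxidise methylcytosine, which starts its removal. EZH2 is the catalytic subunit of Polycomb repressive complex 2 (PRC2), which methylates lysine on histone H3 at silent developmental genes, and PRC1 ubiquitinates histone H2A at many of the same places. The genes of DNA replication, and in many cell types also Dnmt1, Uhrf1, Hells and Ezh2, are targets of E2F transcription factors.

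Total counts ran from 12215025 to 15962341 per library, and no pair of libraries in a group agreed within sampling noise. Levels are CPM, counts per 1e+06 reads, with library totals adjusted by TMM factors. Called means an adjusted p under 0.05 in the quasi-likelihood test of edgeR, adjusted by Benjamini-Hochberg over all genes tested. Nothing in the labels says that libraries within a group are separate animals or cultures, and p-values therefore reflect a spread that may be technical. Trp53 had 80.8 and 89.6 CPM in the KO clones, against 358 and 280 CPM in the Mut clones, a log2 change of -1.89 (SE 0.226, edgeR adjusted p = 0.00259). The knockout clones were thus lower but kept Trp53 reads. The stromal label of the MSC was checked on 16 markers. Their summed level was 2778 to 11030 CPM in TL2 and 2819 to 6823 CPM in TL1, against 19600 to 27550 CPM in MSC, and Thy1 spanned 5.09 to 112 CPM within the MSC. Few genes dominate that sum: of the 19600 CPM in MSC 1, Col1a1, Col1a2 and Cxcl12 had 7220, 6130 and 3190. Ptprc, which marks blood cells, was at most 0.418 CPM, and Epcam, which marks epithelium, at most 0.373 CPM in any library. Other markers of these cell types were not absent. The macrophage marker Lyz2 had 20.1 CPM in MSC 1, 19.2 CPM in TL2 1 and 17.5 CPM in TL1 3b. The keratins Krt18 and Krt19 reached 253 CPM in TL2 3 and 415 CPM in TL1 3b.

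The promoters of 4 of the 9 genes each hold at least 1 of 4 short words that are common forms of the E2F binding site. The words searched, on both strands, were TTTCCCGC, TTTCGCGC, TTTGCCGC and TTTGGCGC, in windows of 250 bases before and 50 after each annotated start site (RefSeq, GRCm38.p6). All 9 genes matched the promoter table, with 14 start sites. A word occurred in Dnmt1, Uhrf1, Hells and Ezh2 and in none of the windows of Dnmt3a, Dnmt3b, Tet1, Tet2 or Tet3, while 2.26% of all 32851 promoters of that length held one. The windows are printed because these 4 genes also had the highest positive correlations with the replication genes across libraries, and the Tet1 window because Tet1 was the gene that differed between tumour lines and MSC. Capitals mark the E2F words, the sequences run 5′ to 3′ on the strand of the gene, and a match is a description of letters, not a binding site. Dnmt1 (chr9:20952574-20952873, minus strand, the only one of its 3 listed start sites with a word) holds words at base 32 and base 284 of the window, Uhrf1 (chr17:56304063-56304362, plus strand, one of 2 start sites) at base 66, Hells (chr19:38930740-38931039, plus strand) at base 189 and Ezh2 (chr6:47594981-47595280, minus strand) at base 254. Tet1 (chr10:62887275-62887574, minus strand) has no such word in this window.
Dnmt1: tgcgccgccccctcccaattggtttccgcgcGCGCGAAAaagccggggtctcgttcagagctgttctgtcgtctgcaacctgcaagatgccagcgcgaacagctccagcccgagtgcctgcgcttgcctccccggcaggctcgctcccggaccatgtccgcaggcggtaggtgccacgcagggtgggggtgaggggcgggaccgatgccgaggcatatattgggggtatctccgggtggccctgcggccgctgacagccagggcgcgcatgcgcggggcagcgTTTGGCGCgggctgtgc
Uhrf1: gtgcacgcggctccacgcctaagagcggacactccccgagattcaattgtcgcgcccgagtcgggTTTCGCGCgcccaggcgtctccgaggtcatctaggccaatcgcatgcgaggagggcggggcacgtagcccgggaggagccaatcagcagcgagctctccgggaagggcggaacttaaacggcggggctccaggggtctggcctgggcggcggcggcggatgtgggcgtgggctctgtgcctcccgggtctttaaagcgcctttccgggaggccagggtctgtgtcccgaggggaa
Hells: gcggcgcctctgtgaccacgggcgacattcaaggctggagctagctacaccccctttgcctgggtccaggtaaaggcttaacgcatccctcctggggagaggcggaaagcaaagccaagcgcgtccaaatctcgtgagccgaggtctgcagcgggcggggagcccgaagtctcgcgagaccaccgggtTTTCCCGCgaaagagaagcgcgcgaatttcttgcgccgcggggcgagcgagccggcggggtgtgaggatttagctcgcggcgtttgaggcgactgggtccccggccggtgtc
Ezh2: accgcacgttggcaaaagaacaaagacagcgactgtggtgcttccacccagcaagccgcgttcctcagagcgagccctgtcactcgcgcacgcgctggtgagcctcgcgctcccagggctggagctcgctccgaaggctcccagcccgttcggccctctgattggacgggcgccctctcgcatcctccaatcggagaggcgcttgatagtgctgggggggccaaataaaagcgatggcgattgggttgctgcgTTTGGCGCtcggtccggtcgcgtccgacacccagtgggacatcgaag
Tet1: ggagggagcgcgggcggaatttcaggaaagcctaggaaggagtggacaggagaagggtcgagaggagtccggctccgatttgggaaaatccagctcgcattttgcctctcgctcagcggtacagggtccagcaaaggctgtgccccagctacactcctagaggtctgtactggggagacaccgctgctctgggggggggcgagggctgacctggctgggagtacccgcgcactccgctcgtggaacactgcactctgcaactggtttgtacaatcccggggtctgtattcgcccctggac
The 4 windows with a word hold 33 CpG in Dnmt1, 33 in Uhrf1, 34 in Hells and 31 in Ezh2. Windows without a word ran from 2 CpG at another Dnmt1 start site to 57 in Tet2, with 17 in Tet1, and the median over all promoters in the table was 7. The CHR words TTTGAA and TTCGAA, a site of cell cycle genes, occurred in none of these 5 windows and in 19.2% of all promoters.

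Set against length, the genes for copying methylation were the most abundant. In the 10 tumour lines Uhrf1 had 28.2 ± 10.8 CPM per kilobase of exon and Dnmt1 27.3 ± 8.24 (SD, n = 10), which do not differ beyond their spread. Ezh2 followed with 11.2 ± 6.62 and Hells with 10.4 ± 4.67 CPM per kilobase, again within each other's spread. The methyltransferases for unmethylated DNA were lower, at 1.76 ± 0.602 CPM per kilobase for Dnmt3a and 0.509 ± 0.160 for Dnmt3b. Among the TET genes Tet3 had 2.57 ± 0.693, Tet2 1.23 ± 0.745 and Tet1 0.0327 ± 0.0195 CPM per kilobase. In MSC the per-kilobase levels were 20.1 ± 4.78 for Uhrf1, 25.6 ± 7.25 for Dnmt1 and 0.231 ± 0.0199 for Tet1 (SD, n = 3), and Tet1 was again the lowest of the 9.

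**Figure D1:**
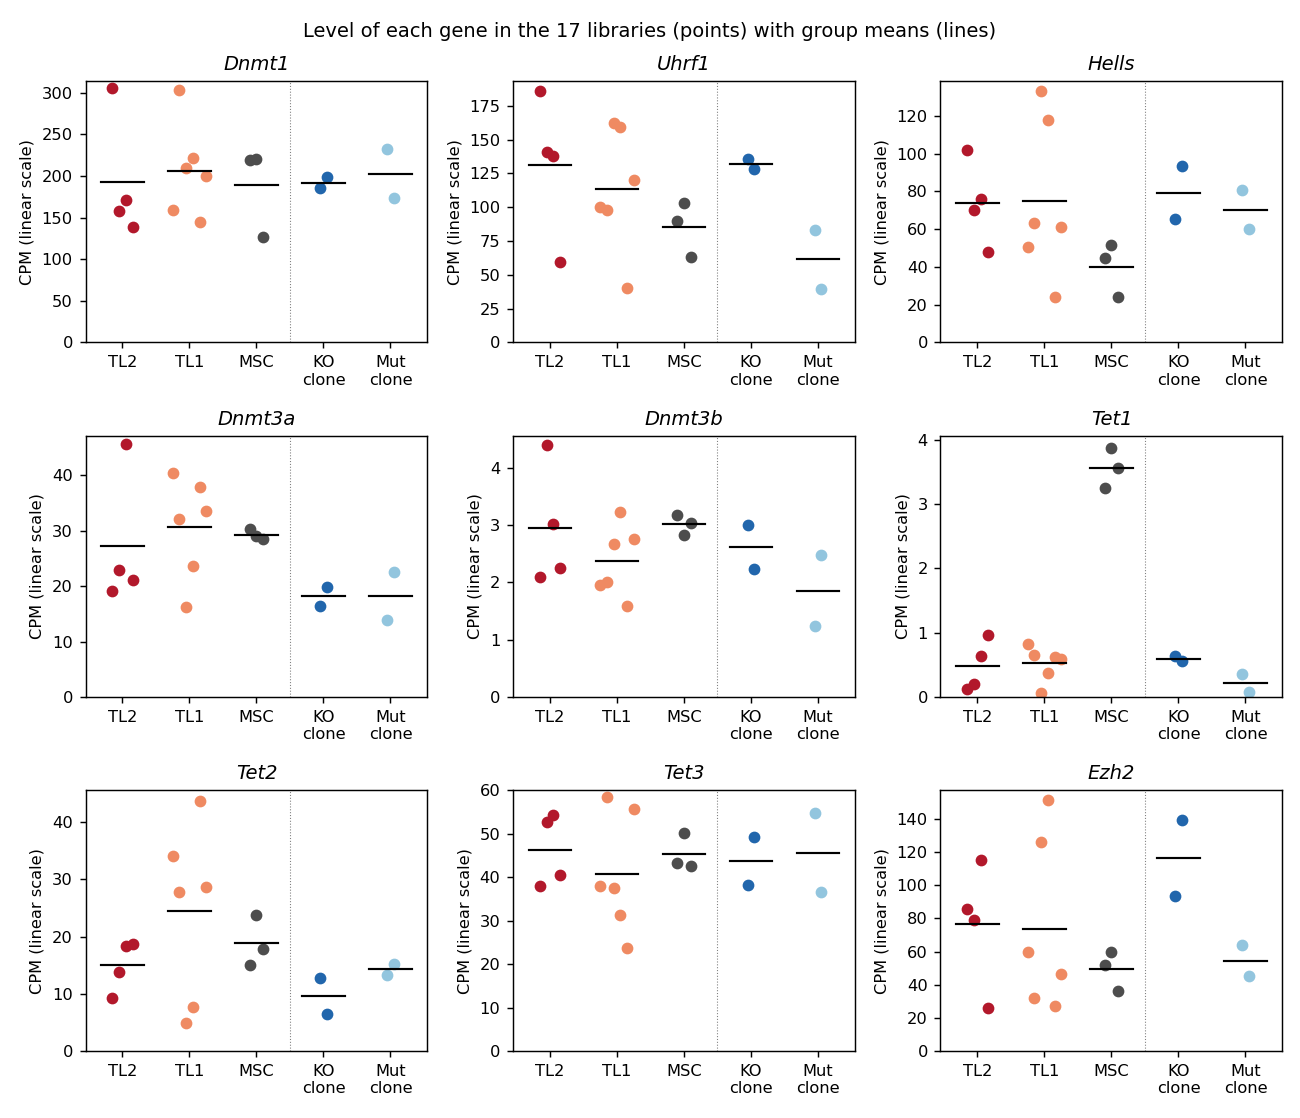
CPM of each of the 9 genes on a linear axis that starts at 0. Points are libraries of TL2 (4), TL1 (6), MSC (3), KO clones (2) and Mut clones (2), and black lines are group means. Tet1 is the panel in which the MSC (3.26 to 3.88 CPM) stand above every other library (at most 0.965 CPM). In the Ezh2 and Uhrf1 panels the KO clones lie above the Mut clones.

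Tumour lines were compared with MSC to see how the machinery differed between tumour-derived lines and the cell type they came from. Tet1 fell, and it was the one gene of the 9 that was called, while 8.65% of the 13262 genes tested were called and 4.79% were called lower. Tet1 had 0.131, 0.194, 0.630 and 0.965 CPM in TL2, and 0.0668, 0.376, 0.598, 0.623, 0.650 and 0.823 CPM in TL1, against 3.26, 3.57 and 3.88 CPM in MSC. The groups did not overlap, as was true of 12.6% of all tested genes in either direction and of 7.53% in this direction. These values rest on 73 Tet1 reads in the 10 tumour lines together and 134 in the 3 MSC. The log2 change was -2.78 (SE 0.574, edgeR adjusted p = 0.0116). The call was lost when MSC 1 was left out (adjusted p = 0.0509) or MSC 3 was left out (adjusted p = 0.0625). In bulk RNA, fewer cells with Tet1 and less Tet1 RNA per cell cannot be told apart. The 4 clones, which also derive from tumour lines, had 0.63 and 0.558 CPM (KO) and 0.362 and 0.0796 CPM (Mut), below every MSC library.

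The other TET genes did not follow Tet1. Tet2 had a low of 4.94, a median of 18.5 and a high of 43.6 CPM in the tumour lines, against 15.1, 17.8 and 23.8 CPM in MSC, so that the tumour lines lay on both sides of the MSC (log2 change 0.05, SE 0.520, adjusted p = 0.960). Tet3 had a low of 23.8, a median of 39.2 and a high of 58.3 CPM in the tumour lines, against 42.6, 43.3 and 50.2 CPM in MSC (log2 change -0.03, SE 0.242, adjusted p = 0.951). Neither passed the test, and the ranges overlapped.

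Hells, Uhrf1 and Ezh2 had higher means in the tumour lines, with a wide spread, and none was called. Hells had a low of 24.3, a median of 66.8 and a high of 133 CPM in the tumour lines, against 24.2, 44.6 and 51.5 CPM in MSC. Its log2 change was 0.93 (SE 0.446, adjusted p = 0.203). For Uhrf1 the tumour lines had a low of 40.2, a median of 129 and a high of 186 CPM, against 63.5, 89.9 and 103 CPM in MSC, a log2 change of 0.54 (SE 0.388, adjusted p = 0.395). Both ranges overlapped, and TL1 3a was the lowest tumour line for either gene. Ezh2 in the tumour lines lay on both sides of the MSC, with a low of 26.2, a median of 69.5 and a high of 151 CPM, against 36.1, 52.1 and 59.6 CPM in MSC (log2 change 0.65, SE 0.541, adjusted p = 0.474). Dnmt1 averaged 201.1 ± 60.8 CPM in the tumour lines (SD, n = 10) and 188.5 ± 53.5 CPM in MSC (SD, n = 3), a log2 change of 0.12 (SE 0.279, adjusted p = 0.807). The summed level of the 34 replication genes moved with these genes: it was 2068 to 5590 CPM in TL2 and 1385 to 5476 CPM in TL1, against 1713 to 2646 CPM in MSC. With that level as a covariate, an alternative chosen after seeing the data, the log2 change of Hells was 0.25, those of Uhrf1 and Ezh2 turned to -0.11 and -0.18, and Tet1 stayed called (log2 change -2.37, adjusted p = 0.0233).

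Neither methyltransferase for unmethylated DNA was called. Dnmt3a had a low of 16.3, a median of 27.8 and a high of 45.6 CPM in the tumour lines, against 28.5, 29.1 and 30.3 CPM in MSC. The 3 MSC lay close together, within a factor of 1.06, while the tumour lines spanned a factor of 2.8 around them. Its log2 change of 0.01 (SE 0.297, adjusted p = 0.982) turned negative under 6 of the 9 other settings. For Dnmt3b the tumour lines had a low of 1.59, a median of 2.46 and a high of 4.40 CPM, against 2.83, 3.04 and 3.18 CPM in MSC (log2 change -0.16, SE 0.343, adjusted p = 0.793).

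**Figure D2:**
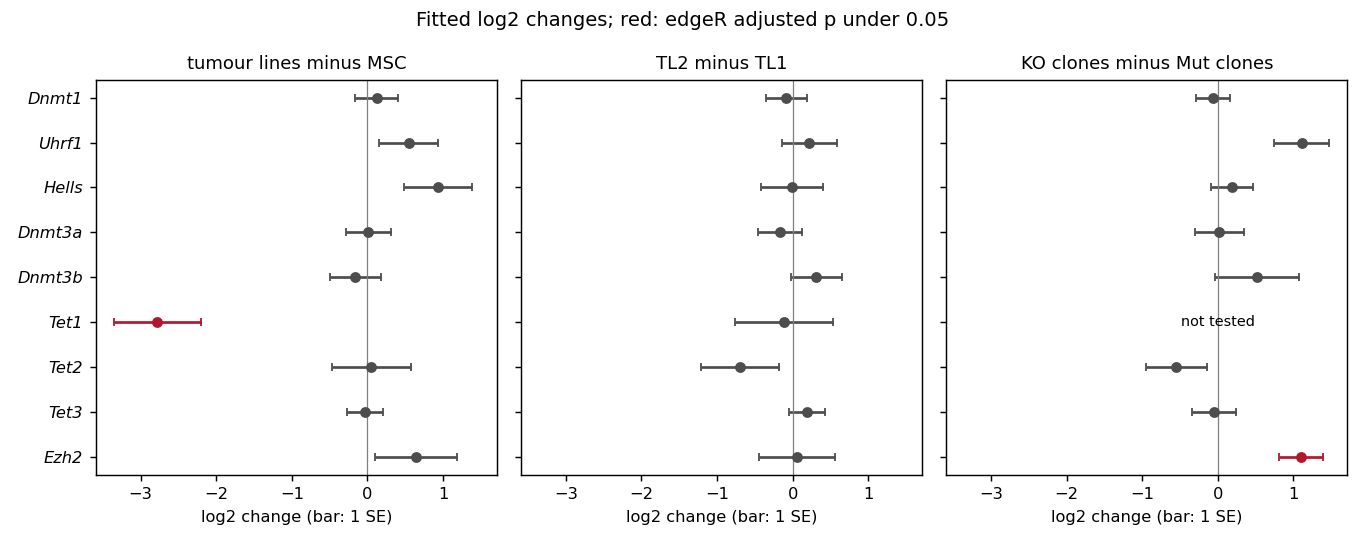
Fitted log2 change (x axis) of each gene (y axis) with bars of 1 SE, for tumour lines minus MSC (left), TL2 minus TL1 (middle) and KO clones minus Mut clones (right). Red marks an edgeR adjusted p under 0.05: Tet1 at -2.78 on the left and Ezh2 at 1.10 on the right. Tet1 was not tested in the clones, where its counts were too low for the filter.

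Around the 9 genes, 11 of the 12 listed other PRC2 genes were tested between tumour lines and MSC and none was called. Their log2 changes were positive for 10 of the 11, with a median of 0.43, beside a median of 0.10 over all 13262 genes. Of 23 PRC1 genes, 3 were called higher and 2 lower, a share of calls to be read beside the 8.65% of all genes. Cbx7, a chromodomain subunit that reads the PRC2 mark, rose: it had a low of 11.3, a median of 18.7 and a high of 39.9 CPM in the tumour lines, against 3.01, 4.77 and 5.47 CPM in MSC (log2 change 2.39, SE 0.446, adjusted p = 0.00686). Yaf2, a subunit of variant PRC1, averaged 77.3 ± 10.1 CPM in the tumour lines and 43.7 ± 8.82 CPM in MSC (SD, n = 10 and 3, adjusted p = 0.00997). Bcor, a corepressor in another PRC1 variant, fell to 42.0 ± 9.15 CPM in the tumour lines, against 77.2 ± 13.3 CPM in MSC (log2 change -0.86, adjusted p = 0.0292). Phc2 (log2 change 1.00) and Rybp (log2 change -0.88) were also called. Both lie outside the rule by which up to 3 genes of a list are named, and they are named to complete the count of 5.

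Of 13 tested genes that remove or oppose Polycomb marks, 1 was called: Kmt2b, a histone H3 lysine 4 methyltransferase listed in the table as Wbp7, averaged 53.3 CPM in the tumour lines and 78.4 CPM in MSC (log2 change -0.54, SE 0.146, adjusted p = 0.0392). Among 20 tested readers and cofactors of DNA methylation, and among 20 genes that supply the methyl donor or the TET cofactors, none was called. The 34 replication genes gave no call either, with 33 positive log2 changes and a median of 0.77, and of the 19 mitosis genes none was called and all 19 changes were positive (median 0.44). None of the 17 genes of the E2F and RB family was called, with 15 positive changes and a median of 0.50.

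Markers of cell types moved with the same comparison. Of the 16 stromal markers 3 were called, all lower, beside the 8.65% of all genes called. They were Cxcl12, Thy1 and Eng, at log2 changes of -4.59, -6.78 and -3.95. The list as a whole was mixed, with 7 positive changes among the 16 and a median of -0.85. Cd44 had 147 to 446 CPM in TL2 and 268 to 432 CPM in TL1, against 155 to 279 CPM in MSC. The 17 blood cell markers summed to 21.4 to 66.7 CPM in TL2 and 15.7 to 48.4 CPM in TL1, against 11.2 to 37.1 CPM in MSC, with Cd14 called higher and Fcer1g lower. Epithelial markers summed to 9.25 to 314 CPM in TL2 and 9.21 to 439 CPM in TL1, against 4.63 to 111 CPM in MSC, and endothelial markers to at most 4.78 CPM in any library. None of the 8 epithelial and endothelial genes tested was called. Of the 6 epithelial genes tested, 5 had positive changes, and the median log2 change of the 6 was 7.22. Krt18 had 0.194 to 253 CPM in the tumour lines, against at most 0.167 CPM in MSC. Krt14 had 0 to 44.5 CPM in the tumour lines and 0 in MSC. Krt19 made up 109 of the 111 CPM in MSC 2. The part of these cell types in the results was not tested.

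Genes that depend on these marks in other settings were also read, beside the 8.65% of all genes called. Of 19 germline genes known to be silenced by promoter methylation in mouse somatic cells, 4 passed the filter and none was called. Of 10 tested developmental factors of the kind that carry Polycomb marks in mouse embryonic stem cells, Foxa1 was called. It had at most 1.05 CPM in any tumour line, against 3.23, 8.45 and 9.04 CPM in MSC, and its log2 change was -5.49 (SE 1.21, adjusted p = 0.0166).

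Second-generation lines were set against first-generation lines to ask whether passage through a second tumour went with a change. No gene of the 9 was called, and neither was any of the 13262 genes tested by edgeR (0% called, 246 with an unadjusted p under 0.05, 3 genes called by DESeq2 and 0 by limma-voom). Tet2 had the largest difference among the 9 in this fit. It had 9.26, 13.9, 18.4 and 18.7 CPM in TL2, against 4.94, 7.74, 27.8, 28.6, 34.0 and 43.6 CPM in TL1 (log2 change -0.70, SE 0.515, unadjusted p = 0.199). The TL2 values lay inside the TL1 range. With same-numbered libraries paired (replicate block) its log2 change was -0.14, smaller than those of Tet3 (0.18) and Dnmt3b (0.17), and with the replication level as a covariate it was -0.24. The remaining log2 changes ran from -0.17 (Dnmt3a, SE 0.291) to 0.31 (Dnmt3b, SE 0.335), and no gene of the 9 separated the generations, as 0.136% of all genes did. Of the 14 gene lists none gave a call here.

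How the tumour lines varied among themselves was tested by the number in their titles. An edgeR test of the number, with generation as a covariate, called 226 of 12611 genes (1.79%) and none of the 8 genes tested, Tet1 having been filtered out. Ezh2 came closest, with an edgeR adjusted p of 0.0760. Lines numbered 1 had 32.4, 59.8 and 85.7 CPM of Ezh2, lines numbered 2 had 79.2, 115, 126 and 151 CPM, and lines numbered 3 had 26.2, 27.6 and 46.5 CPM. Every line numbered 3 was below every line numbered 2, and the share of all genes that separate in this way was not counted. Ezh2 was called when TL2 1 was left out (adjusted p = 0.0421), with the number alone in the model (0.0450), in a fit of all 17 libraries (0.0141) and by DESeq2 (0.00123). With the replication level as a covariate its adjusted p was 0.307.

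For Uhrf1, Hells and Tet2 the means also differed by number, and none passed the test. Uhrf1 averaged 127.8 ± 49.99, 149.8 ± 12.4 and 73.2 ± 41.3 CPM in lines numbered 1, 2 and 3 (SD, n = 3, 4 and 3, edgeR adjusted p = 0.268). Hells averaged 72.1 ± 26.9, 99.2 ± 31.0 and 44.5 ± 18.7 CPM (edgeR adjusted p = 0.223). Tet2 ran the other way, with 23.7 ± 12.9, 11.2 ± 6.07 and 30.3 ± 12.6 CPM (edgeR adjusted p = 0.360). Of the listed genes, E2f4, a member of the E2F family that acts mainly as a repressor, was called for the number (adjusted p = 0.0416). Its level was 290, 332 and 524 CPM in lines numbered 1, 152, 220, 137 and 159 CPM in lines numbered 2, and 90.0, 94.1 and 126 CPM in lines numbered 3.

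Across all 17 libraries the replication genes ordered 3 of the 9 genes closely. The points share libraries, groups and the scaling of each library, so the correlations are a description. With the summed level of the 34 replication genes, Hells had r = 0.934 and rho = 0.931, Uhrf1 r = 0.892 and rho = 0.907, and Ezh2 r = 0.860 and rho = 0.868 (n = 17). Without the 2 libraries farthest from the median, TL1 3a and MSC 3, r was 0.89, 0.84 and 0.83. Dnmt1 followed less closely (r = 0.615, rho = 0.564, and r = 0.438 without those 2). Within the 10 tumour lines r was 0.971 for Hells, 0.959 for Uhrf1, 0.858 for Ezh2 and 0.630 for Dnmt1. Tet2 ran opposite, with r = -0.744 and rho = -0.735 over 17 libraries, and r = -0.843 within the tumour lines. Tet1 (r = -0.518, and -0.713 within the tumour lines) and Dnmt3a (r = -0.482 and -0.523) were negative as well. Dnmt3b had r = 0.213 over 17 libraries and 0.530 within the tumour lines, and Tet3 0.198 and 0.228.

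**Figure D3:**
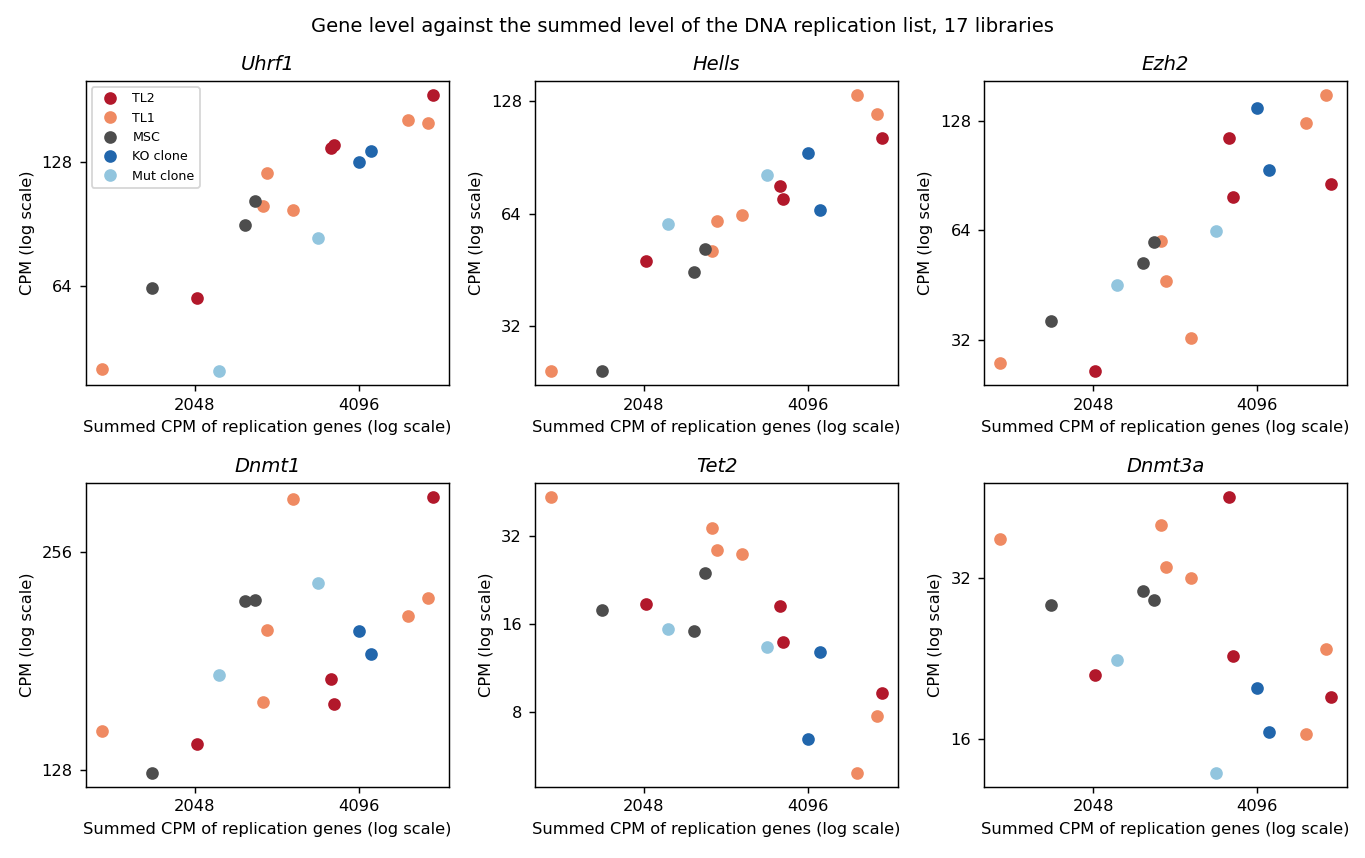
CPM of 6 genes (y axes, log scale) against the summed CPM of 34 replication genes (x axes, log scale). Points are the 17 libraries, coloured by group (TL2, TL1, MSC, KO clone, Mut clone). Uhrf1, Hells and Ezh2 climb with the replication genes, Tet2 descends, and Dnmt1 and Dnmt3a scatter.

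The ends of that range show it in single libraries. TL2 1 had the highest replication sum, 5590 CPM, and there Uhrf1 had 186 CPM, Hells 102, Ezh2 85.7 and Tet2 9.26 CPM. TL1 3a had the lowest, 1385 CPM, with 40.2 CPM of Uhrf1, 24.3 of Hells, 27.6 of Ezh2 and 43.6 CPM of Tet2, which was the highest Tet2 level of all. Per 1000 CPM of replication genes, Uhrf1 lay between 28.9 and 42.9 CPM in the 10 tumour lines, and between 35.5 and 39.1 in MSC. The Mut clones lay below this range, with 24.2 and 17.5 CPM of Uhrf1 per 1000, while the KO clones had 31.5 and 31.3.

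The genes nearest in pattern differed from member to member. They were taken by Pearson r of log2 CPM over the 17 libraries, among 9186 candidates with a mean of at least 10 CPM. Chromosome position played no part in the choice. Whether a gene and its neighbours lie on the same chromosome, and the part of gene copy number in the likeness, was not tested. For Ezh2 they were Foxm1 (r = 0.971), a transcription factor of mitotic genes, Rad51ap1 (0.939), a homologous recombination factor, and Mad2l1 (0.935), a spindle checkpoint protein. For Hells they were Ect2 (0.962), a cytokinesis factor, Usp1 (0.941), a deubiquitinase of DNA repair, and Rangap1 (0.940), the activator of the Ran GTPase. Uhrf1 was nearest to Ccnf (0.945), which encodes cyclin F, Mlf1ip (0.944), a centromere protein, and Ndc80 (0.943), a kinetochore protein. Dnmt1 was nearest to Topbp1 (0.938), a replication checkpoint protein, then Mns1 (0.845) and Tex9 (0.839). Topbp1 kept its likeness within the 10 tumour lines (r = 0.958).

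Dnmt3a, Dnmt3b and the TET genes had other neighbours. Dnmt3a was nearest to Mta3 (0.855), a subunit of the NuRD corepressor, Zfp157 (0.835) and Medag (0.834), and Tet2 to Vps13d (0.873), Mtmr3 (0.873) and Ndrg2 (0.870). Dnmt3a and Tet2 also followed each other (r = 0.723, rho = 0.782, n = 17, and r = 0.808 within the tumour lines). Tet1 was nearest to Tbc1d2b (0.922), Zfp260 (0.907) and Irgq (0.905). Within the tumour lines, without the step between MSC and the rest, r was 0.671, 0.788 and 0.717. Dnmt3b was nearest to Foxp1 (0.793), Pafah2 (0.753) and Stx2 (0.750). Tet3 had the weakest neighbours, Casd1 (0.739), Palm (0.735) and Emp1 (0.693).

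The KO clones were compared with the Mut clones to ask what loss of mutant p53 went with. With 2 clones on each side, the knockout and the differences between clones cannot be told apart, and 26.1% of the 12238 genes tested were called, 14.2% higher and 12% lower. Ezh2 rose, and it was the 1 gene called among the 8 tested. It had 93.6 and 139 CPM in the KO clones, against 63.9 and 45.2 CPM in the Mut clones, a log2 change of 1.10 (SE 0.293, edgeR adjusted p = 0.0357). The call was lost on leaving out any of the 4 libraries (log2 change 0.80 to 1.38, adjusted p up to 0.186) and in a fit of all 17 libraries (log2 change 1.09, adjusted p = 0.372). In the annotation, 2.61% of the exon bases of Ezh2 lie opposite another gene, and the strand setting of the counting was not given in the sources used here.

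Uhrf1 showed a difference of the same size that missed the threshold. It had 136 and 128 CPM in the KO clones, against 83.5 and 39.8 CPM in the Mut clones (log2 change 1.11, SE 0.363, adjusted p = 0.0681), and the difference passed in DESeq2 (adjusted p = 0.0174), in limma-voom (0.0488) and without Mut clone 1 (0.0222). Tet2 had 12.8 and 6.45 CPM in the KO clones, against 13.3 and 15.3 CPM in the Mut clones (log2 change -0.55, SE 0.406, adjusted p = 0.352). For Ezh2, Uhrf1 and Tet2 the clones did not overlap, which with 2 against 2 was true of 69.7% of all genes. The rest overlapped. Hells had 65.2 and 93.2 CPM in the KO clones, against 80.9 and 59.9 CPM in the Mut clones (log2 change 0.18, SE 0.276, adjusted p = 0.653). Dnmt1 had 185 and 199 CPM in the KO clones, against 232 and 173 CPM in the Mut clones (log2 change -0.06, SE 0.226, adjusted p = 0.862). Dnmt3a, Dnmt3b and Tet3 had log2 changes of 0.02, 0.52 and -0.05, with adjusted p-values of 0.969, 0.527 and 0.918. Tet1 had 8 and 7 reads in the KO clones and 5 and 1 in the Mut clones, too few to test.

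The replication genes moved with Ezh2 and Uhrf1 between the clones. Their summed level was 4309 and 4091 CPM in the KO clones, against 3446 and 2269 CPM in the Mut clones, and 8 of the 34 were called, all higher, beside the 26.1% of all genes called in either direction and the 14.2% called higher. Rrm2, a subunit of ribonucleotide reductase, had 341 and 391 CPM in the KO clones, against 82.9 and 73.5 CPM in the Mut clones (log2 change 2.24, SE 0.212, adjusted p = 0.00107). Rfc3, a clamp loader subunit, and Chaf1b, which deposits histones behind the fork, had log2 changes of 1.37 and 1.33. Of the E2F and RB family 3 genes were called higher and 2 lower of 17, beside the same 26.1%. E2f8 had 40.7 and 56.7 CPM in the KO clones, against 19.7 and 11.8 CPM in the Mut clones (log2 change 1.64). E2f7 had a log2 change of 0.92 and E2f5 of -1.22. The other two, outside the naming rule, were Rb1, which averaged 36.8 CPM in the KO clones, against 18.8 CPM in the Mut clones, and Lin9, which averaged 18.9 CPM in the KO clones, against 35.7 CPM in the Mut clones. In a fit of all 17 libraries with the replication level as a covariate, chosen after seeing the data, the log2 change of Ezh2 was 0.41 (adjusted p = 0.567). Foxm1, the nearest neighbour of Ezh2 in pattern, was the 1 of 19 mitosis genes called, at a log2 change of 1.01 (SE 0.267, adjusted p = 0.0351).

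Partners of Ezh2 moved in both directions. Of 11 other PRC2 genes tested, 1 was called higher and 3 lower, beside the 26.1% of all genes called (14.2% higher and 12% lower). Their median log2 change was -0.38 beside 0.00 over all genes. Epop, listed in the table as E130012A19Rik, is a PRC2 accessory subunit that links it to elongin. It fell to 10.6 and 7.49 CPM in the KO clones, against 42.5 and 63.4 CPM in the Mut clones (log2 change -2.53, SE 0.326, adjusted p = 0.00341). Phf19, a Polycomb-like subunit that helps to recruit PRC2, had 1.5 and 1.51 CPM in the KO clones, against 8.05 and 11.9 CPM in the Mut clones (log2 change -2.70, SE 0.450, adjusted p = 0.00799). Phf1, the paralogue of Phf19, ran the opposite way, with 33.8 and 34.0 CPM in the KO clones, against 13.3 and 9.87 CPM in the Mut clones (log2 change 1.56, SE 0.276, adjusted p = 0.00975). Ezh1, the alternative catalytic subunit and outside the naming rule, had 21.6 and 16.5 CPM in the KO clones, against 44.9 and 41.5 CPM in the Mut clones (log2 change -1.16, SE 0.257, adjusted p = 0.0201). The level of Phf1 in every other library lay between 26.2 and 75.3 CPM, so the Mut clones stood low for it, whereas Phf19 was lowest in the KO clones and Epop highest in the Mut clones among all 17 libraries.

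**Figure D4:**
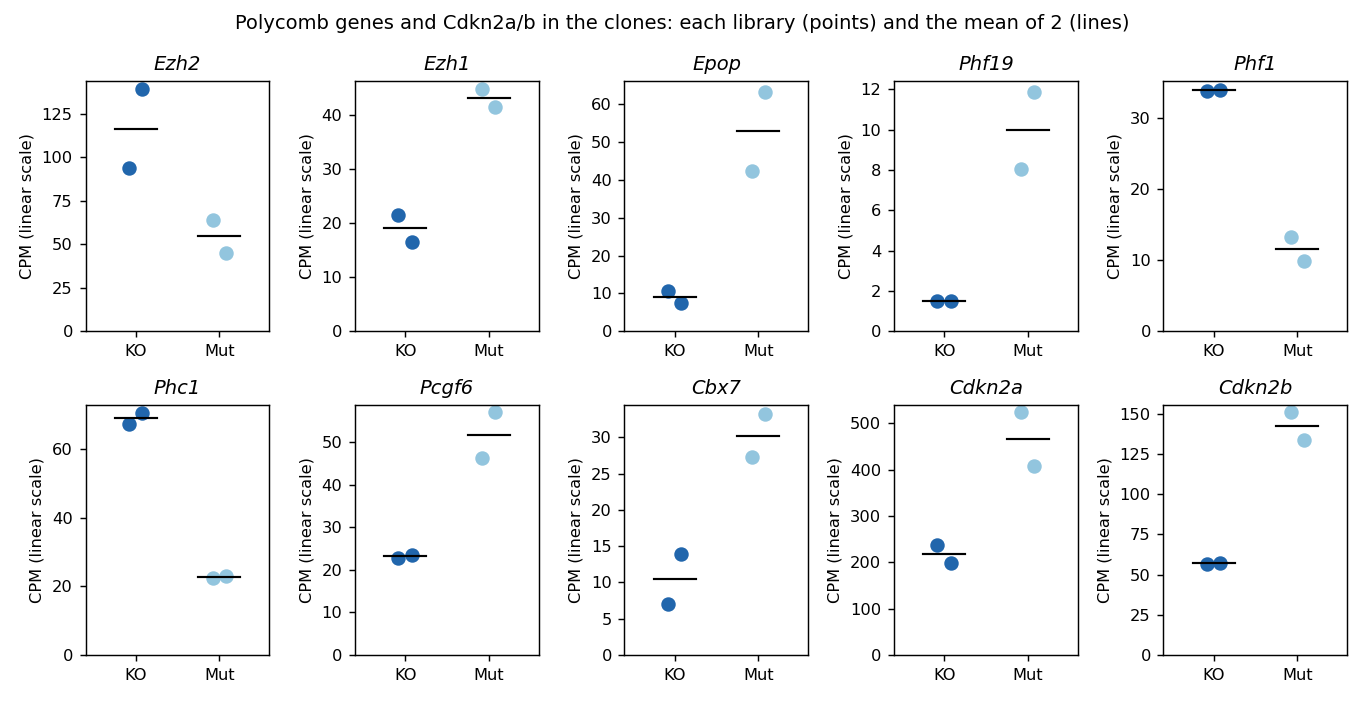
CPM of 8 Polycomb genes and of Cdkn2a and Cdkn2b in the KO clones (left in each panel) and the Mut clones (right), on linear axes that start at 0. Points are single libraries and lines are means of 2. Ezh2, Phf1 and Phc1 are higher in the KO clones, and Ezh1, Epop, Phf19, Pcgf6, Cbx7, Cdkn2a and Cdkn2b are lower.

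Of 23 PRC1 genes, 1 was called higher and 3 lower (median log2 change -0.02), a smaller share than the 26.1% of all genes. Phc1, a scaffold subunit, had 67.4 and 70.6 CPM in the KO clones, against 22.5 and 22.9 CPM in the Mut clones (log2 change 1.62, adjusted p = 0.00429). Pcgf6, of a variant PRC1, had 22.8 and 23.5 CPM in the KO clones, against 46.2 and 57.1 CPM in the Mut clones (log2 change -1.14, adjusted p = 0.0170). Cbx7, which was higher in tumour lines than in MSC, had 7.01 and 13.9 CPM in the KO clones, against 27.3 and 33.2 CPM in the Mut clones (log2 change -1.51, adjusted p = 0.0295). Rnf2, the E3 ligase subunit and outside the naming rule, had 47 and 38.9 CPM in the KO clones, against 69.4 and 86.7 CPM in the Mut clones. Of 20 readers and cofactors of DNA methylation, 2 were called higher and 1 lower, again a smaller share than over all genes. Gadd45g, a stress-inducible factor linked to demethylation, had 217 and 248 CPM in the KO clones, against 32.6 and 20.1 CPM in the Mut clones (log2 change 3.16, adjusted p = 0.00108). Cdca7l, a relative of the HELLS partner CDCA7, had 14 and 17.8 CPM in the KO clones, against 54.5 and 54.9 CPM in the Mut clones (log2 change -1.76, adjusted p = 0.00484). Mbd3 of the NuRD complex had a log2 change of 0.96 (adjusted p = 0.0191).

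Among the 20 genes of methyl donor and TET cofactor metabolism tested, 4 were called, 1 higher and 3 lower, beside the 26.1% of all genes called. The serine hydroxymethyltransferases Shmt1 and Shmt2 were called lower, with log2 changes of -0.93 and -0.71, and 1 further lower gene is not reported here. Ahcy, which clears the by-product of methylation and lies outside the naming rule, was called higher (log2 change 0.67). None of 12 tested erasers and antagonists of Polycomb was called.

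Cdkn2a and Cdkn2b, the cell cycle inhibitors of the classical Polycomb target locus, fell in the KO clones. Cdkn2a had 238 and 198 CPM in the KO clones, against 524 and 408 CPM in the Mut clones (log2 change -1.08, SE 0.229, adjusted p = 0.0177). Cdkn2b had 56.7 and 57.4 CPM in the KO clones, against 151 and 134 CPM in the Mut clones (log2 change -1.30, SE 0.208, adjusted p = 0.00717). The tumour lines, which keep mutant p53, had 175 to 573 CPM of Cdkn2a and 0.911 to 216 CPM of Cdkn2b. Both kinds of clone lay inside these ranges. Lhx2, a developmental homeobox factor, had 15.2 and 20.2 CPM in the KO clones, against 0.217 and 0 CPM in the Mut clones (adjusted p = 0.00186), and TL2 1 also had 13.1 CPM of it. All 3 belong to the list of developmental factors and Polycomb targets, of which 8 were tested, 2 called higher and 3 lower, beside the 26.1% of all genes called. The other two, outside the naming rule, were the endoderm and heart factors Gata6 and Gata4. Gata6 had 16.9 and 16.3 CPM in the KO clones, against 2.1 and 5.25 CPM in the Mut clones, and Gata4 had 0 and 0.0797 CPM in the KO clones, against 2.1 and 19.3 CPM in the Mut clones.

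Of the germline genes, Tdrd1 and Sohlh2 were called among 4 tested, beside the 26.1% of all genes called. Tdrd1, a piRNA pathway gene, had 0.157 and 0.0797 CPM in the KO clones, against 63.9 and 34.5 CPM in the Mut clones (edgeR adjusted p = 0.00027). Across all libraries Tdrd1 was high in 4: both Mut clones, TL1 1a (44.8 CPM) and TL2 3 (46.4 CPM). It was at most 1.05 CPM in the other 13, and the library TL1 1b, which carries the same number as TL1 1a, had none. Sohlh2 was low throughout, at 1.18 and 0.956 CPM in the KO clones, against 0.0725 and 0 CPM in the Mut clones (adjusted p = 0.0212).

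Markers of cell types also differed between the clones. Of 15 tested stromal markers 4 were called higher and 4 lower, beside the 26.1% of all genes called. In mean CPM (KO clones, Mut clones), the higher ones were Pdgfrb (235, 5.91), Cxcl12 (339, 11.8), Col1a1 (755, 41.5) and Itgb1 (2040, 823). The lower ones were Twist2 (0.0797, 75.9), Twist1 (27.2, 96.1), Ly6a (11.8, 39.3) and Pdgfra (1.62, 5.43). All but Twist2, Twist1 and Itgb1 lie outside the naming rule. The summed level of the stromal markers was 4977 to 4985 CPM in the KO clones, against 2703 to 3356 CPM in the Mut clones. Epithelial markers summed to 10.12 to 10.47 CPM in the KO clones, against 37.3 to 113 CPM in the Mut clones, with 2 of 3 tested called higher and 1 (Krt18) lower. The 17 blood cell markers summed to 7.71 to 7.97 CPM in the KO clones, against 13.4 to 18.3 CPM in the Mut clones, and the endothelial markers to at most 1.99 CPM, with Emcn at 0 in every library. Ribosomal RNA reads (Rn45s) took 0.878% and 4.14% of counts in the KO clones, against 1.05% and 0.974% in the Mut clones. Their part in the clone differences was not tested.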

How the data were processed

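The authors deposited 1 table of whole-number read counts per gene, not normalized. Per the submitters' processing notes, HTSeq 0.6.1p1, TopHat2 2.0.10, DESeq2 1.6.3 and cutadapt were used with mm10; which tool did what, the annotation and the strand setting were not given in the sources used here. In the table, 4 columns match no sample and were not used. Genes were tested with edgeR 4.0.16 in R 4.3.3 (TMM scaling, filterByExpr, robust quasi-likelihood, Benjamini-Hochberg over all genes tested), after a check on simulated data. Tumour lines minus MSC and TL2 minus TL1 came from 1 fit of 13 libraries, the title number from the 10 tumour lines, and the clones were fitted alone. DESeq2 1.42.0, limma-voom (limma 3.58.1), other scalings, no filter, a fit of all 17 libraries, blocks and leaving out each library were alternatives. The 9 genes, the 14 lists (256 of 258 listed genes in the table, 8 under another symbol) and the tests were chosen with earlier results of these data known. Named were the 9 genes, Trp53, up to 3 called genes per list and comparison by adjusted p, and the 3 nearest in pattern per gene; 1 gene that this rule names is not reported here. Same-numbered TL1 and TL2 libraries were taken as pairs in the replicate block alternative, because all 3 correlations of their deviations (0.461, 0.376 and 0.510) exceeded 0.1. The main tests of these groups had no block, so their p-values treat same-numbered lines as independent. Exon lengths are from GENCODE (GRCm38).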

Additional observations from a re-analysis of the deposited data

Results flagged for a closer look

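Dnmt3a in TL2 2b stood apart from the other 3 second-generation lines, at 45.6 CPM against 19.2, 21.1 and 22.9 CPM. Its gap to the nearest line was larger than Dixon's criterion at the 95% level allows for 4 samples. In all, 18 groups were looked at in this way, and chance marks about 1 group in 20. Without this library the log2 change of Dnmt3a was -0.54 between TL2 and TL1 and -0.17 between tumour lines and MSC, and neither was called.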

How the results depend on the processing

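Between tumour lines and MSC the call of Tet1 held under 9 alternatives other than leaving out a library, with log2 changes from -3.04 to -2.37 and adjusted p up to 0.0238, and was lost without MSC 1 or MSC 3 (log2 change -3.10 to -2.63 over all 13 libraries left out). So 0 or 1 of the 9 genes was called on leaving out a library. All genes called numbered 1147, 2208 with DESeq2 and 304 to 1532 on leaving out a library (349 without MSC 1, 687 without MSC 2 and 304 without MSC 3). Some uncalled log2 changes turned round, most of them near 0 in the main fit, but not those of Uhrf1 and Ezh2. Dnmt3a was -0.0241 with RLE scaling, -0.0201 without the filter, -0.0242 with DESeq2, -0.0685 with limma-voom, -0.0201 in a fit of all 17 libraries and -0.0244 with tumour lines summed per number. Tet3 was 0.0462 with library totals alone and Tet2 -0.14 with limma-voom. With the replication level as a covariate Dnmt1 was -0.154, Uhrf1 -0.108 and Ezh2 -0.184, against 0.121, 0.544 and 0.646 in the main fit. On leaving out a library, Dnmt1 ran from -0.0933 to 0.244, Dnmt3a from -0.17 to 0.0792, Tet2 from -0.0904 to 0.245 and Tet3 from -0.126 to 0.044.

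Correlations of MSC and tumour lines of the same number were 0.167, 0.00451 and 0.209, and those of unlike numbers ran from -0.192 to 0.0516. Such values cannot decide whether MSC and tumour lines of a number share an origin. With the number as replicate block Tet2 was -0.0367, Tet1 stayed called (edgeR adjusted p = 0.0103) and 1686 genes were called. For TL2 minus TL1 the replicate block changed no call, Tet2 was -0.139 in place of -0.698, and Ezh2 was -0.0828. There DESeq2 called 3 genes, limma-voom gave 0.141 for Hells, and the replication covariate -0.0368 for Ezh2. Leaving out a library moved Dnmt1 from -0.4 to 0.0419, Uhrf1 from -0.00357 to 0.444, Hells from -0.216 to 0.215, Tet1 from -0.715 to 0.191 and Ezh2 from -0.206 to 0.397.

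For the number in the titles, 226 genes were called, 413 without the filter, 1893 with DESeq2, 1897 in a fit of all 17 libraries, 686 with the number alone and 39 with the replication covariate. Of the 9 genes 1 (Ezh2) was called with DESeq2, 1 in the fit of 17 libraries and 1 with the number alone. Leaving out a library gave 28 (without TL2 3) to 269 genes, and 0 or 1 of the 9. Counts of 72, 45, 32, 68, 73 and 48 followed without TL1 1b, TL1 2a, TL1 2b, TL2 2a, TL2 2b and TL1 3b.

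For KO minus Mut clones 3200 genes were called, 820 in a fit of all 17 libraries, 1247 with the replication covariate added, and 1347 to 1755 on leaving out a clone, where the lone clone is assumed to vary like the other group: 1755 without Mut clone 1, 1347 without Mut clone 2, 1648 without KO clone 1 and 1375 without KO clone 2. Of the 9 genes 2 were called with DESeq2, 2 with limma-voom, 0 in both fits of 17 libraries, and 0 or 1 on leaving out a clone. Dnmt3a was -0.119 with library totals alone, and with the replication covariate Hells was -0.45 and Tet2 0.0864. Leaving out a clone moved Dnmt1 from -0.273 to 0.169, Hells from -0.0922 to 0.422, Dnmt3a from -0.29 to 0.401 and Tet3 from -0.326 to 0.277. No paired analysis was possible for the clones because their titles carry no number. The causes of these shifts were not tested. Depth limits Tet1 most, with 1 to 15 reads in each tumour line and clone.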
